A study of Mus musculus with 48 samples.

Results

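The genes followed here encode natural killer (NK) receptors and their signalling adaptors: Klra1, Klrc1, Klrd1, Klrg1, Klre1, Klrk1, Klrb1c, Fcer1g and Tyrobp. They were chosen by name, with earlier results of these data known. All 9 of 9 were matched by gene identifier in both bulk RNA count tables. These held 52636 gene rows for sorted cells and 35661 for donor T cells. All 9 were also present in the single-cell matrices, and 38 of 54524 deposited ATAC regions lay within 10 kb of at least 1 of them. The study compared 3 sublineages of invariant natural killer T (iNKT) cells and their effect on graft-versus-host disease (GVHD). Cells of the iNKT1, iNKT2 and iNKT17 sublineages were sorted from thymi of FVB/N mice, with 2 libraries each for RNA and 2 each for ATAC sequencing, which counts reads from accessible chromatin. Total iNKT cells of 2 single thymi, from FVB/N mice aged 8 weeks, gave 2 single-cell libraries. Donor CD4 and CD8 conventional T cells of FVB/N mice were sequenced before transplant (day 0) and on day 7 after transfer into BALB/c hosts, a major histocompatibility mismatch. The day 7 hosts had GVHD and were untreated or had been given iNKT1, iNKT2 or iNKT17 cells, with 3 libraries for each of these groups and 3 at day 0. The sample titles place the donor libraries in 2 experiments, with 2 libraries of each group in 1 experiment and 1 library, listed last, in the other. The columns of the count table do not name the experiment, so it was not used as a batch in any donor test. The groups run in the same order in the columns and in the titles. Library 3 of a group may therefore be the one of the other experiment, which the labels do not settle. The day 7 titles give each CD4 library a CD8 library of the same experiment and numeral. The main tests between CD8 and CD4 cells did not use this pairing. Because the labels do not say whether the libraries of a group came from separate animals, the spread between them may be technical. A further 4 libraries of CD4-positive and CD4-negative iNKT1 cells were not analysed here.

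NK receptors of the lectin-like families sit on the surface of NK cells and of some T cells, where inhibitory members recognise self class I molecules and activating members recognise ligands of stressed or foreign cells. Inhibitory receptors carry a motif in their own tail that recruits phosphatases, whereas activating receptors have no signalling tail and depend on small partner chains such as Fcer1g, Tyrobp or Hcst, which recruit kinases. In the thymus these receptors are known from the mature, T-bet expressing iNKT1 cells, and NK1.1, the product of Klrb1c, has long been used to mark mature iNKT cells.

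Library totals ran from 26811373 to 33688697 counts for RNA of sorted iNKT cells, 13299586 to 42964216 for ATAC, 25323879 to 37055182 for donor CD4 cells and 26134241 to 33658426 for donor CD8 cells. Levels are given as CPM, counts relative to the total of the library after scaling by trimmed mean of M-values. Replicate spread, as edgeR's biological coefficient of variation, was 1.30 in RNA of sorted iNKT cells and only 0.288 and 0.196 in donor CD4 and CD8 cells, with 0.298 in the ATAC libraries. Changes were tested with the quasi-likelihood test of edgeR, adjusted by Benjamini-Hochberg over all genes or regions tested, and called at an adjusted p under 0.05. T cell genes were abundant in each iNKT group (8 markers summing to 3420 to 4503 CPM).

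In sorted thymic cells, most of these genes were RNAs of iNKT1. Of the 9, Klrg1 had no reads and Tyrobp had too few to be tested. Of the 7 tested, Klrc1, Klrd1 and Fcer1g were lower in iNKT2 than in iNKT1 and none was higher, where 0.752% of 12372 genes were lower and 1.29% changed in either direction. Klra1, Klrc1, Klrd1, Klrk1 and Fcer1g, 5 of the 7, were lower in iNKT17 than in iNKT1 and none was higher, where 1.01% of genes were lower and 2% changed in either direction. Klra1 and Klrd1 were also lower in iNKT17 than in iNKT2, where 0.275% of genes were lower and 0.711% changed in either direction. In bulk samples, fewer cells that carry an RNA and less RNA in each cell cannot be told apart.

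Among the inhibitory receptors, Klra1 encodes Ly49A, which binds class I molecules, and lies at chr6:130363918-130386874 (GRCm38). Klra1 stood at 315 and 361 CPM in the 2 iNKT1 libraries, 94.0 and 73.2 in iNKT2, and 0.0965 and 0.233 in iNKT17. The 3 groups did not overlap, and iNKT2 held an intermediate level. iNKT17 was below iNKT1 (log2 95% interval -12.27 to -9.72, adjusted p = 3.3e-05), whereas the log2 difference of iNKT2 was -2.02 (SE 0.43, adjusted p = 0.065) and did not pass. Between the remaining pair, the log2 difference of iNKT17 from iNKT2 was -8.98 (SE 0.61, adjusted p = 0.00014). Without iNKT2 library 1, the difference between iNKT2 and iNKT1 passed (log2 -2.21, adjusted p = 0.0484), as it did with DESeq2 (adjusted p = 4.5e-07), no filter (adjusted p = 0.0011) or only those groups in the fit (adjusted p = 0.0153). With only the iNKT2 and iNKT17 libraries in the fit the difference between them did not (adjusted p = 0.0652).

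Klrd1 (CD94) and Klrc1 (NKG2A) encode the chains of a heterodimer that binds the nonclassical class I molecule Qa-1, and lie near each other at chr6:129588092-129598775 and chr6:129666015-129682852. Klrd1 was read at 933 and 957 CPM in iNKT1, 18.7 and 8.22 in iNKT2, and 0.0965 and 0.620 in iNKT17. All 3 groups were apart. Its log2 difference from iNKT1 was -6.13 in iNKT2 (SE 0.75, adjusted p = 0.0108) and -11.39 in iNKT17 (SE 0.95, adjusted p = 0.0013), and iNKT17 was below iNKT2 (log2 -5.26, SE 0.77, adjusted p = 0.039). Klrc1 was at 99.2 and 79.5 CPM in iNKT1, 0.0338 and 0.0362 in iNKT2, and 0.0643 and 0.155 in iNKT17. Only iNKT1 held more than a trace of it: 5684 reads in all, against 2 in iNKT2, a ratio of 2461 per library total with an exact 95% interval of 681 to 20323 that covers counting error only. Klrc1 passed against iNKT1 in iNKT2 (adjusted p = 0.0308) and in iNKT17 (log2 -9.62, SE 1.92, adjusted p = 0.0366). Both Klrc1 calls were lost without either iNKT1 library (adjusted p from 0.285 to 0.354). Klrd1 lost its iNKT2 call without iNKT1 library 2 (adjusted p = 0.0592) or iNKT2 library 2 (adjusted p = 0.116), and its difference between iNKT17 and iNKT2 without iNKT2 library 1 (adjusted p = 0.0527) or 2 (adjusted p = 0.0716), with DESeq2's size factors (adjusted p = 0.0521) and with only those groups in the fit (adjusted p = 0.833).

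Klre1 encodes a product that pairs with Klri1 or Klri2, and Klrg1 an inhibitory receptor for cadherins. Klre1 was likewise highest in iNKT1 but had no call in the main fit, and Klrg1 was not read. Klre1 (chr6:129559365-129585828) was at 169 and 212 CPM in iNKT1, 11.5 and 0.109 in iNKT2, and 0.0643 and 0.233 in iNKT17. The iNKT1 libraries were the highest, but the 2 iNKT2 libraries lay far apart, with 341 reads and 3 reads, and neither difference from iNKT1 passed (log2 -5.03 in iNKT2, adjusted p = 0.554; log2 -10.31 in iNKT17, adjusted p = 0.133). With either iNKT2 library left out the iNKT2 difference passed (log2 -10.73 without library 1, adjusted p = 5.6e-08; log2 -4.03 without library 2, adjusted p = 0.0405). Without iNKT2 library 2, the difference of iNKT17 from iNKT2 passed as well (log2 -6.28, adjusted p = 0.0001). In iNKT17 against iNKT1, Klre1 passed at about the same fold with DESeq2 (adjusted p = 4.2e-06), with no filter on low counts (adjusted p = 1.4e-15) and with only those groups in the fit (adjusted p = 0.0034), and with no filter also between iNKT2 and iNKT1 (adjusted p = 8e-06) and between iNKT17 and iNKT2 (adjusted p = 1.6e-05). Klrg1 (chr6:122270596-122282833) had 0 reads in all 6 libraries, which allows at most 0.0897 to 0.116 CPM.

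The activating receptors split. Klrk1 encodes NKG2D, a receptor for stress-induced ligands that signals through Hcst and, in the mouse, also Tyrobp, and lies at chr6:129610323-129623903. Klrk1 stood at 476 and 377 CPM in iNKT1, 0.271 and 5.51 in iNKT2, and 0.0322 and 0.194 in iNKT17. It was high in iNKT1 alone, with no overlap between iNKT1 and either other group. The iNKT17 difference passed (log2 -11.89, SE 1.86, adjusted p = 0.0401) and the iNKT2 difference did not (log2 -7.21, SE 1.49, adjusted p = 0.131). The iNKT17 call was lost when any of the 4 libraries compared was left out (adjusted p from 0.165 to 0.614), and the iNKT2 difference passed without iNKT2 library 1 (adjusted p = 1.6e-09) or 2 (adjusted p = 6.6e-08). Without iNKT2 library 1, Klrk1 was also lower in iNKT17 relative to iNKT2 (log2 -5.60, adjusted p = 2.5e-10). Both of the latter differences passed with DESeq2 (adjusted p = 8.4e-05 and 0.0493) and with no filter (adjusted p = 5.8e-31 and 1e-11).

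Klrb1c (chr6:128778485-128788641) was the exception to the iNKT1 pattern. It was read at 335 and 241 CPM in iNKT1, 0.372 and 8.66 in iNKT2, and 505 and 461 in iNKT17. Both iNKT17 libraries lay above both iNKT1 libraries, and iNKT2 lay far below each of them. None of its differences passed: iNKT17 against iNKT1 was 0.75 on the log2 scale (95% interval -1.40 to 2.89, adjusted p = 0.925), iNKT2 against iNKT1 was -6.00 (SE 1.36, adjusted p = 0.175) and iNKT17 against iNKT2 was 6.74 (SE 1.40, adjusted p = 0.193). The last passed without iNKT2 library 1 (log2 5.82, adjusted p = 1.7e-13) or library 2 (log2 10.32, adjusted p = 6.1e-11), as did iNKT2 against iNKT1 (log2 -5.06 and -9.56), and both passed with DESeq2 in place of edgeR (adjusted p = 2.2e-05 and 0.00034) and with no filter (adjusted p = 7.8e-46 and 9.5e-39). Its neighbours of the same family followed the same order of groups in part: Klrb1a was at 49.9 and 106 CPM in iNKT1, 13.7 and 1.41 in iNKT2, and 108 and 66.7 in iNKT17. Klrb1f was at 5.73 and 19.5, 0.0338 and 1.45, and 42.3 and 28.8 CPM in the same order. Reads that near-identical family members share cannot be assigned with certainty here, since how the authors counted them is not given in the sources used here.

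The adaptors also differed. Fcer1g, the gamma chain that carries an activation motif for Fc receptors and for NK1.1, lies at chr1:171229572-171234349. Fcer1g was at 187 and 237 CPM in iNKT1, 0 and 0.109 in iNKT2, and 0.0322 and 0.155 in iNKT17. It was almost confined to the iNKT1 libraries, with 13639 reads there and 3 in iNKT2, a ratio of 3936 per library total (exact 95% interval 1347 to 19090). Fcer1g passed in iNKT2 (adjusted p = 0.0023) and in iNKT17 (log2 -11.12, SE 1.29, adjusted p = 0.0016), also without any single library of those compared. Klrb1c was thus abundant in the iNKT17 libraries while Fcer1g was not.

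Tyrobp (DAP12), the corresponding adaptor of many Ly49 and NKG2 receptors, lies at chr7:30413782-30417582. It was at 16.6 and 0.0299 CPM in the 2 iNKT1 libraries, that is 506 reads and 1 read, and had none in the other 4. It was not tested. In iNKT1 library 1, where Tyrobp was read, the NK cell regulator Eomes was at 2.59 CPM and the myeloid gene Lyz2 at 4.22 CPM, and both were at 0 in iNKT1 library 2. Klrc2 was likewise at 41.1 CPM in library 1 and at 0 in library 2. The NK cell gene Klra8 was at 22.2 CPM and the basophil gene Mcpt8 at 9.70 CPM in library 2 alone. The NK cell markers Ncr1 (30.2 and 23.1 CPM), Klra4 (143.7 and 134) and Klri2 (75.8 and 102) were read in both libraries. The 5 mast cell and basophil markers summed to 0 to 9.70 CPM in iNKT1, where 4 were at 0, 0 to 0.0338 in iNKT2 and 0 in iNKT17. The 12 myeloid markers summed to 35.5 to 78.5 CPM in iNKT1, where 8 including Csf1r and Cd14 were at 0, 46.4 to 130 in iNKT2 and 89.6 to 149 in iNKT17, where 9 were at 0. The part of other cells in the Tyrobp reads was not tested.

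Markers of NK cells were also highest in iNKT1. The 5 marker genes (Ncr1, Eomes, Klra4, Klra8, Klri2) summed to 252 to 282 CPM in iNKT1, 13.0 to 30.1 in iNKT2, where Eomes and Klra8 were at 0, and 0.233 to 0.386 in iNKT17, where Ncr1, Eomes and Klra8 were at 0. Klra4 made up 143.7 and 134 CPM of the iNKT1 sums and Ncr1, the NK receptor NKp46, 30.2 and 23.1 CPM. Klra4, Klra8, Klri2 and Ncr1 are themselves on the receptor lists below. The 6 B and plasma cell markers summed to 133 to 168 CPM in iNKT1, where 4 were at 0, 5.90 to 15.2 in iNKT2, where 5 were at 0, and 31.9 to 137 in iNKT17, where 4 were at 0. The part of these lists in the results was not tested.

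**Figure D1:**
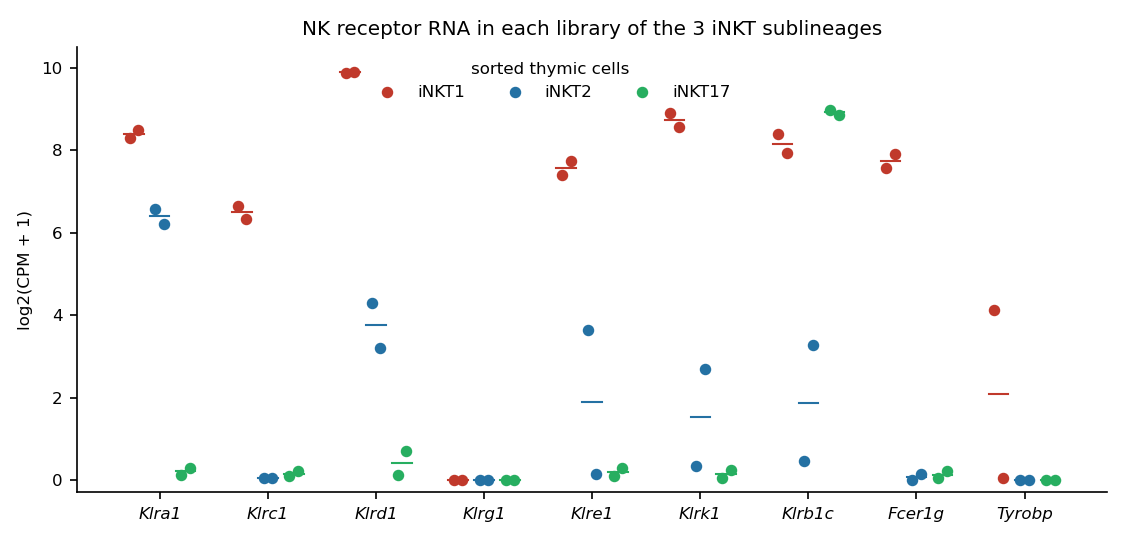
RNA of each of the 9 genes in the sorted sublineages, as log2(CPM + 1) on the vertical axis. Each point is 1 library (2 per group) and each short line the mean of the 2 plotted values. Klrb1c is high in iNKT1 and iNKT17, Klra1 is intermediate in iNKT2, and most others are high in iNKT1 only.

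Other genes of the pathway were read from lists of related genes. Of all 12372 genes, 0.752% were lower and 0.533% higher in iNKT2 than in iNKT1, and 1.01% lower and 0.986% higher in iNKT17 than in iNKT1. Between iNKT17 and iNKT2, 0.275% were lower and 0.436% higher in iNKT17. No list was tested as a set. Of 19 further lectin-like receptors, 11 were tested: 2 fell in iNKT2 against iNKT1 (Klra6 and Klra5), 4 fell in iNKT17 against iNKT1 (Klra6, Klra4, Klra5 and Klri2), and 1 (Klra4) was lower in iNKT17 than in iNKT2. Klra5 was at 1616 and 1187 CPM in iNKT1, 4.27 and 1.05 in iNKT2, and 0.322 and 1.09 in iNKT17. Of 9 other NK cell receptors, 7 were tested: 3 fell in iNKT2 (Cd244, Slamf7 and Cd96), 2 in iNKT17 (Slamf7 and Cd244), both against iNKT1, and Cd96 was higher in iNKT17 than in iNKT2. Cd244, the receptor 2B4, was at 199 and 204 CPM in iNKT1 and at 0.0677 and 0.181 in iNKT2. Of 16 signalling genes, 14 were tested, and Cd247 alone passed, being higher in iNKT2 (log2 1.82, SE 0.25, adjusted p = 0.0067) and in iNKT17 (log2 1.36, SE 0.25, adjusted p = 0.0213) than in iNKT1. Hcst (DAP10) was at 130 and 138 CPM in iNKT1, 114.6 and 96.2 in iNKT2, and 96.7 and 17.6 in iNKT17, with no call. None of the 3 inhibitory phosphatases passed in any of the 3 comparisons. Of 9 ligands tested, the Klrg1 ligand Cdh1 fell in iNKT2 (log2 -2.46, SE 0.37, adjusted p = 0.0106), and Cdh1 (log2 -10.58, SE 0.54, adjusted p = 1.4e-05), H2-D1 and H2-K1 in iNKT17. Of 6 regulators tested, Il2rb, a receptor chain for interleukin 15, was lower in both sublineages and Id2 was higher in iNKT17. Tbx21 (T-bet) was at 307 and 305 CPM in iNKT1, 0.305 and 19.7 in iNKT2, and 0.0965 and 0.233 in iNKT17, with no call.

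Where chromatin at these genes changed against iNKT1, it was more open in iNKT1. Of the 38 regions, 20 had fewer counts in iNKT2 than in iNKT1 and 0 more, where 16.3% of 54520 regions had fewer, 22.3% more, and 38.6% changed in either direction. In iNKT17, 19 of 38 had fewer counts than in iNKT1 and 0 more, where 13.6% had fewer, 23.5% more, and 37.1% changed. The median log2 difference over the 38 regions was -1.39 in iNKT2 and -1.05 in iNKT17, beside 0.06 and 0.07 over all regions. Between iNKT17 and iNKT2, 2 of 38 were higher in iNKT17 and 0 lower, where 5.11% were higher, 3.24% lower, and 8.34% changed. In that comparison, the fit with the library number as a block called 5 of 38, all 5 higher, without iNKT17 library 1 as well 5 passed, without iNKT2 library 2 only 1, and without iNKT17 library 2 none. No label pairs the ATAC libraries across sublineages. The fit with the library number as a block is an alternative, given where it changed the call of a region named here.

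The promoters of Klra1 and Klrc1 are shown because an ATAC region that lost counts overlaps each, and that of Klrb1c because its RNA was kept in iNKT17. Each sequence is the 250 bases before the RefSeq start site in GRCm38.p6, 5′ to 3′ on the gene's strand (minus for all 3), from the reference genome and not from the FVB/N mice. Capitals mark matches to TGTGGT, the core bound by Runx factors, on either strand.
Klra1, chr6:130386875-130387124: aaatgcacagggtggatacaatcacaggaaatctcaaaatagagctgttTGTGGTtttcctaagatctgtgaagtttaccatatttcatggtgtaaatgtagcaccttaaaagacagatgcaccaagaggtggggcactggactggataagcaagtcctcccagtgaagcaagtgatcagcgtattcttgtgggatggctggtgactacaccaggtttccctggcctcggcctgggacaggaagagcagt
Klrc1, chr6:129678974-129679223: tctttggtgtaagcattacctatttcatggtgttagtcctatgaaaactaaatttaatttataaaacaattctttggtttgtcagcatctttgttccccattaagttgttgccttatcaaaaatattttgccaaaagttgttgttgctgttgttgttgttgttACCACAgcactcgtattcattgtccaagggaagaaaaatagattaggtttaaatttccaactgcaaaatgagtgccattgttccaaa
Klrb1c, chr6:128788642-128788891: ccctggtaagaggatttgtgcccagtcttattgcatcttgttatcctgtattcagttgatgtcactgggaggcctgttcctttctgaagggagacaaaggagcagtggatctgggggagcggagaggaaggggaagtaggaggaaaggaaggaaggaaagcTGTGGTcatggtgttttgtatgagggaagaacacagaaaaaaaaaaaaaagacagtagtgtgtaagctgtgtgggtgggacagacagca
The match lay 201 bases before the start of Klra1, 89 before that of Klrb1c and, on the opposite strand, 87 before that of Klrc1. Windows for Klrk1 (match 129 bases before the start) and 1 of 2 starts of Klre1 (229 bases) held it as well, and that of Fcer1g did not. Of 32851 windows of the same length at all genes, 14.0% held TGTGGT. The T-box core GGTGTG, found in 16.3% of all windows, and the STAT core TTCNNNGAA, found in 7.02%, had no match in these windows. No match says only that these letters are absent from the window, and a match is not a shown binding site. Klrd1, Klrg1 and Tyrobp had no entry.

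At Klra1, the region chr6:130386815-130387820 covers the start site and the whole printed window. It held 27.9 and 32.3 CPM in iNKT1, 12.1 and 7.64 in iNKT2, and 6.64 and 6.27 in iNKT17. All 3 groups were apart, in the same order as the RNA, and counts fell in iNKT2 (log2 -1.60, SE 0.27, adjusted p = 0.0021) and iNKT17 (log2 -2.22, SE 0.27, adjusted p = 0.00035). The region at the start of Klrc1, chr6:129678264-129679012, overlaps the last 39 bases of its printed window. It held 8.81 and 13.3 CPM in iNKT1, 1.74 and 0.788 in iNKT2, and 0.862 and 0.904 in iNKT17, with lower counts in iNKT2 (log2 -3.08, SE 0.43, adjusted p = 0.00091) and iNKT17 (log2 -3.63, SE 0.44, adjusted p = 0.00031).

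A neighbouring region within Klrc1, chr6:129680178-129680852, did not follow the gene's RNA. It held 25.2 and 33.4 CPM in iNKT1, 8.04 and 13.8 in iNKT2, and 25.4 and 44.5 in iNKT17. The iNKT17 libraries overlapped iNKT1 (log2 0.26, SE 0.33, adjusted p = 0.578) and lay above iNKT2 (log2 1.69, SE 0.34, adjusted p = 0.0188), although Klrc1 RNA was at a trace in both. That last call was lost without iNKT2 library 1 (adjusted p = 0.0708) or iNKT17 library 2 (adjusted p = 0.0817). The lower counts of iNKT2 against iNKT1 there (log2 -1.43, SE 0.34, adjusted p = 0.0107) did not pass without iNKT1 library 2 (adjusted p = 0.0545) or iNKT2 library 1 (adjusted p = 0.058).

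Klrd1, Klre1 and Klrk1 are close together on chromosome 6, so 5 of the 38 regions lie within 10 kb of 2 members. Against iNKT1, all 6 regions of Klrd1 and all 5 of Klre1 had fewer counts in each of the other sublineages, as did 4 of 4 for Klrk1 in iNKT2 (3 of 4 with the block) and 3 of 4 in iNKT17. The largest difference was at chr6:129586742-129587159, between Klre1 and Klrd1. It held 8.18 and 10.6 CPM in iNKT1, 0.614 and 0.315 in iNKT2, and 0.355 and 0.339 in iNKT17 (log2 -4.27, SE 0.43, adjusted p = 0.00029 and log2 -4.74, SE 0.43, adjusted p = 0.0001). A region between Klrd1 and Klrk1, chr6:129608163-129608698, held 21.0 and 25.6 CPM in iNKT1, 3.17 and 2.84 in iNKT2, and 3.45 and 6.69 in iNKT17. It had fewer counts in both sublineages than in iNKT1 (log2 -2.95 and -2.19, adjusted p = 0.00047 and 0.00098). A region just upstream of Klrk1, chr6:129627228-129627749, held 15.3 and 17.8, 1.84 and 2.36, and 1.01 and 2.32 CPM in the same order of groups, and iNKT1 was again apart. At chr6:129558542-129559596, which overlaps Klre1, the calls (adjusted p = 0.0198 in iNKT2 and 0.0277 in iNKT17) were both lost without iNKT1 library 2 (adjusted p = 0.0886 and 0.102), the first without iNKT2 library 2 (adjusted p = 0.0856) and the second without iNKT17 library 1 (adjusted p = 0.0908).

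At Klrb1c, 1 of 5 regions was called between iNKT17 and iNKT2. Upstream of the gene, chr6:128796122-128797131 held 62.1 and 80.2 CPM in iNKT1, 26.9 and 28.1 in iNKT2, and 39.2 and 61.9 in iNKT17. Counts fell in iNKT2 (log2 -1.37, SE 0.25, adjusted p = 0.0029), while the iNKT17 libraries, which lay between the other groups, differed from iNKT1 by -0.49 (adjusted p = 0.14) and from iNKT2 by 0.88 (adjusted p = 0.0592) on the log2 scale. With the library number as a block both of these passed (log2 -0.51, adjusted p = 0.0116; log2 0.84, adjusted p = 0.0053). The next region, chr6:128798309-128798615, held 15.2 and 21.5 CPM in iNKT1, 7.12 and 5.91 in iNKT2, and 12.2 and 14.7 in iNKT17, and this region was called higher in iNKT17 than in iNKT2 (log2 1.04, SE 0.27, adjusted p = 0.0442). That call was lost without iNKT2 library 1 (adjusted p = 0.0948), iNKT2 library 2 (adjusted p = 0.231) or iNKT17 library 2 (adjusted p = 0.2), and with only those groups in the fit (adjusted p = 0.0622). Relative to iNKT1, 2 of the 5 regions of Klrb1c fell in iNKT2 and 0 in iNKT17, or 1 in iNKT17 with the block.

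The region inside Fcer1g, chr1:171231732-171232537, held 24.1 and 22.95 CPM in iNKT1, 3.69 and 4.73 in iNKT2, and 4.26 and 3.16 in iNKT17. It fell in iNKT2 (log2 -2.49, SE 0.27, adjusted p = 0.00036) and in iNKT17 (log2 -2.67, SE 0.27, adjusted p = 0.00016). Another region within 10 kb of Fcer1g, chr1:171222369-171223090, which overlaps the neighbouring genes Tomm40l and Apoa2, fell in iNKT2 (log2 -0.79, adjusted p = 0.0334), a call lost without iNKT1 library 1 (adjusted p = 0.0521), iNKT1 library 2 (adjusted p = 0.177) or iNKT2 library 1 (adjusted p = 0.193). In iNKT17 it passed with the block (log2 -0.61, adjusted p = 0.0008) and not without it (adjusted p = 0.089). Klrg1, which had no RNA reads, still had 7 regions, of which 2 fell in each comparison with iNKT1, or 5 in iNKT2 and 3 in iNKT17 with the block. Its region chr6:122284540-122285168 held 5.67 and 6.51 CPM in iNKT1, 1.69 and 0.630 in iNKT2, and 1.17 and 0.565 in iNKT17, with iNKT1 apart from both. Of 7 regions at Tyrobp, 0 fell in iNKT2 and 2 in iNKT17 (3 and 3 with the block), among them chr7:30410952-30411410 at 4.23 and 4.53, 2.25 and 1.103, and 1.27 and 0.565 CPM in the 3 groups. With the block, that region also fell in iNKT2 (log2 -1.45, adjusted p = 0.0209), the region chr7:30422020-30422486, which overlaps Nfkbid, fell in iNKT2 (log2 -0.39, adjusted p = 0.03) and iNKT17 (log2 -0.34, adjusted p = 0.0477), and chr6:122291589-122292109 near Klrg1 fell in iNKT2 (log2 -0.55, adjusted p = 0.0303).

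**Figure D2:**
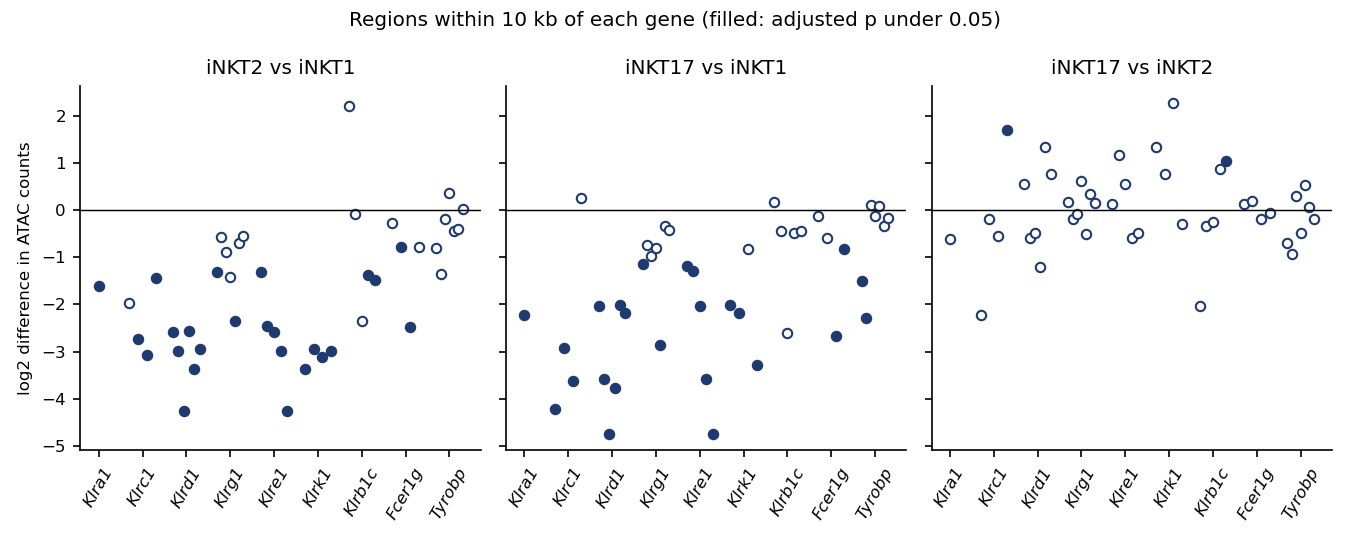
Log2 difference in ATAC counts for every region within 10 kb of each gene, in the 3 comparisons between sublineages. Each circle is 1 region, ordered by position within a gene, and filled circles have an adjusted p under 0.05. All filled circles lie below 0 in the comparisons with iNKT1, and 2 lie above 0 in iNKT17 against iNKT2.

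Single cells showed how these RNAs were spread over individual thymic iNKT cells. After filtering, 138 and 144 cells of the 2 thymi were kept, 282 in all, with no cell barcode shared between the libraries. Clustering was run without the 9 genes and 28 related receptors, 37 in all, so the members did not shape the clusters. Of 4 clusters, 3 were named from marker genes: 66 iNKT1-like cells, 123 iNKT2-like cells and 47 iNKT17-like cells. A cluster of 46 cells, led by Xcl1, Ctla2a and receptors that had been left out of the clustering, stayed unnamed. Its best marker list was that of iNKT1-like cells, with 10 of 10 markers detected. Its mean log2 ratio to the other cells, 0.452, was under the minimum of 0.5 set for a name. The 2 thymi are 1 group, so no test was made. Intervals are exact binomial 95% and cover counting error only.

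Fcer1g and Klrd1 were detected in most iNKT1-like cells. Fcer1g had at least 1 molecule (UMI) in 52 of 66, or 78.8% (67.0% to 87.9%), and in 78.9% and 78.6% of the cells of the 2 thymi. It was found in 39.1% of the unnamed cluster, 8.94% of iNKT2-like cells and 6.38% of iNKT17-like cells. Klrd1 was found in 77.3% of iNKT1-like cells (65.3% to 86.7%), 50.0% of the unnamed cluster, 9.76% of iNKT2-like and 4.26% of iNKT17-like cells. For both genes the interval of iNKT1-like cells lay above that of every other cluster, by little for Klrd1, where the unnamed cluster's reached 65.1%. Klrk1 was in 62.1% of iNKT1-like cells, 32.6% of the unnamed cluster, 4.88% and 6.38% of the other 2. Its share in iNKT1-like cells differed between the thymi, 18 of 38 against 23 of 28 cells.

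Klra1 and Klrb1c had other distributions. Klra1 was in 42.4% of iNKT1-like cells (30.3% to 55.2%), 37.0% of the unnamed cluster, 18.7% of iNKT2-like cells (12.2% to 26.7%) and 1 of 47 iNKT17-like cells. The 2 thymi differed for Klra1 in iNKT2-like cells, with 5 of 54 in thymus A and 18 of 69 in thymus B. Klrb1c was in 57.4% of iNKT17-like cells (42.2% to 71.7%), 45.5% of iNKT1-like cells (33.1% to 58.2%), 30.4% of the unnamed cluster and 4.88% of iNKT2-like cells (1.81% to 10.3%). The iNKT17-like and iNKT1-like intervals overlapped, and the iNKT2-like interval lay below both. Klrb1c was in 11 of 16 and 16 of 31 iNKT17-like cells of the 2 thymi.

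The remaining members were sparse. Klrc1 was in 34.8% of iNKT1-like cells, 17.4% of the unnamed cluster, 4.07% of iNKT2-like cells and 0 of 47 iNKT17-like cells, which allows a share of cells with a UMI of up to 6.38% (3 of 47). Klre1 was in 16.7%, 8.70%, 0.813% and 2.13% of these clusters in the same order. Tyrobp was in 7 cells of 282, 6 of them iNKT1-like, and 6 of the 7 also had Fcer1g. Klrg1 was in 2 cells of 282. The single-cell libraries therefore also placed Tyrobp and Klrg1 near the lower limit of detection.

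Depth differed between clusters, with median totals of 3987 UMIs in iNKT1-like, 7561 in iNKT2-like, 4324 in unnamed and 4948 in iNKT17-like cells. With every cell thinned to 2000 UMIs, which left out 8 of 282 cells, Fcer1g was in 60.9% of iNKT1-like, 2.46% of iNKT2-like and 0 of 45 iNKT17-like cells. Klra1 was then in 21.9%, 3.28% and 0% of these, and Klrb1c in 23.4% of iNKT1-like, 0.82% of iNKT2-like and 33.3% of iNKT17-like cells. Klrd1 was then in 54.7% of iNKT1-like cells (41.7% to 67.2%) and 37.2% of the unnamed cluster (22.98% to 53.3%), so that these intervals overlapped. With Leiden resolution 0.3, or a minimum of 2000 UMIs, there was no unnamed cluster and 89 or 97 cells were iNKT1-like, and at resolution 1.0 there were 5 clusters, with 63 iNKT2-like cells and 54 in a cluster of interferon-responding T-like cells. The low shares in iNKT2-like and iNKT17-like cells may hold free RNA, whose part was not tested. The NK cell marker list summed to 253 CPM in iNKT1-like, 203 in unnamed, 33.9 in iNKT2-like and 0 in iNKT17-like cells. The 12 myeloid markers summed to 130 CPM in iNKT1-like, 138 in unnamed and 397 in iNKT17-like cells, with 11 genes at 0 in each, and to 119 in iNKT2-like cells, with 10 at 0.

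Single iNKT1-like cells, and some cells of the unnamed cluster, held combinations of these genes. All 66 iNKT1-like cells had at least 1 of the 9, 36 had 4 or more, and the median was 4 with a highest number of 7. Of 46 cells of the unnamed cluster, 9 had none, 12 had 4 or more, and the median was 2 with a highest number of 6. Of 123 iNKT2-like cells, 77 had none and the highest number was 3, and of 47 iNKT17-like cells, 18 had none and the highest number was 2. Over all 282 cells, 21 of the 36 cells with Klrc1 also had its partner Klrd1, and 48 of the 65 with Klrk1 had Klrd1. Most of these cells were iNKT1-like, 23 of the 36 and 41 of the 65. Klrd1 was in 31.2% of all cells and in 77.3% of iNKT1-like cells. Of 77 cells with Klrb1c, 35 also had its adaptor Fcer1g, which was in 29.8% of all cells and 78.8% of iNKT1-like cells. Whether any pair shared cells beyond such shares was not tested. Detection in a cell depends on its depth, so a partner that was not seen may have been missed.

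**Figure D3:**
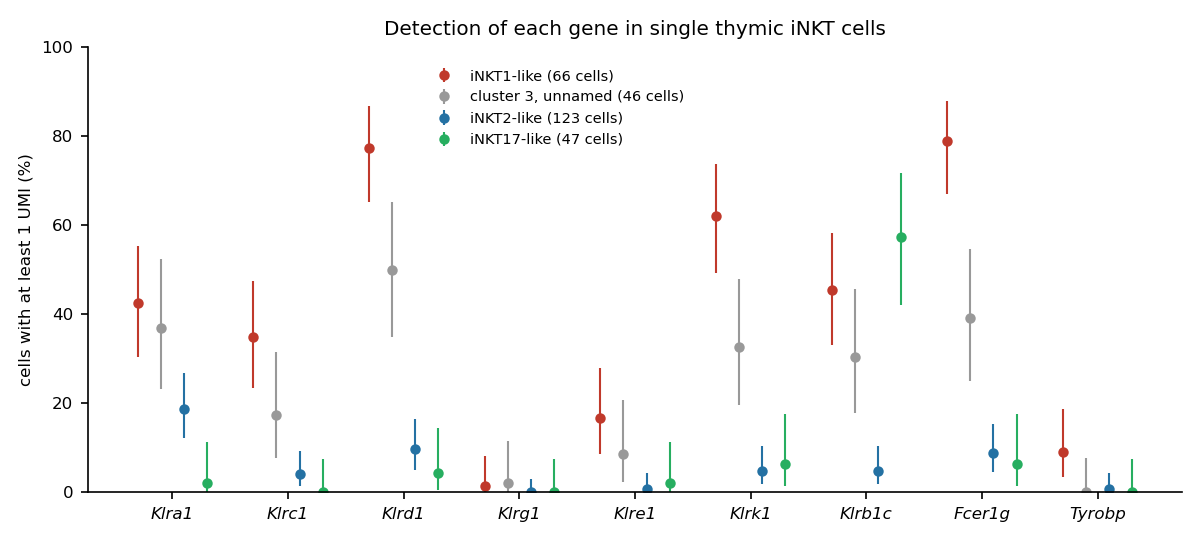
Share of single thymic iNKT cells with at least 1 UMI of each gene, in percent, by cluster, with exact binomial 95% intervals as bars. Fcer1g, Klrd1 and Klrk1 are highest in the iNKT1-like cluster, and Klrb1c is in 57.4% of iNKT17-like and 45.5% of iNKT1-like cells.

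In donor T cells, most receptors rose after transplant. Between day 0 and day 7 in untreated hosts, 6 of the 9 members rose and 2 fell in CD4 cells, where 17.4% of 15031 genes rose and 18.2% fell, 35.6% in all. In CD8 cells 6 rose and 2 fell as well, where 30.9% of 14586 genes rose and 29.8% fell, 60.7% in all. A change in either cell type was thus common among all genes. Values below are given for the 3 libraries at day 0 and then the 3 untreated libraries at day 7.

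The NKG2A and CD94 genes rose in both cell types. Klrc1 went from 3.38, 3.18 and 6.41 CPM to 276, 301 and 290 in CD4 cells (log2 6.02, SE 0.44, adjusted p = 2.8e-07), and from 4.31, 6.44 and 8.22 to 727, 570 and 688 in CD8 cells (log2 6.69, SE 0.20, adjusted p = 1.8e-12). Klrd1 went from 8.34, 7.55 and 7.00 to 87.9, 72.9 and 84.9 CPM in CD4 cells (log2 3.37, SE 0.24, adjusted p = 2e-07), and from 31.4, 28.8 and 42.2 to 205, 208 and 248 in CD8 cells (log2 2.67, SE 0.16, adjusted p = 1.6e-09). No day 7 library overlapped day 0 for either gene. Both were higher in CD8 than in CD4 cells at day 7 (log2 1.19, SE 0.29, adjusted p = 0.0053 for Klrc1 and log2 1.43, SE 0.19, adjusted p = 8e-06 for Klrd1), and Klrd1 already at day 0 (log2 2.16, SE 0.20, adjusted p = 4.1e-08). At day 0, Klra1 and Klrd1 were higher and Klrg1 lower in CD8 cells, where 4.07% of 15601 genes were higher and 4.52% lower, 8.59% in all. At day 7, Klrc1, Klrd1, Klre1, Klrk1 and Fcer1g were higher and none of the 9 lower, where 7.78% of genes were higher and 6.67% lower, 14.5% in all.

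Klrk1 had the largest of the 9 differences between the cell types at day 7 (log2 3.49). It went from 8.70, 6.05 and 10.3 to 50.5, 54.5 and 67.3 CPM in CD4 cells (log2 2.74, SE 0.25, adjusted p = 1.9e-06), and from 5.64, 7.83 and 6.34 to 754, 572 and 614 in CD8 cells (log2 6.59, SE 0.17, adjusted p = 4.6e-13). The cell types overlapped at day 0 and were apart at day 7, and the rise was larger in CD8 cells by 3.83 on the log2 scale (SE 0.29, adjusted p = 4.1e-09). The change differed between the cell types in 3 members: it was more positive in CD8 cells for Klrk1 and Klrg1, as in 4.49% of 15601 genes, and more negative for Klra1, as in 4.29%, 8.78% in all.

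Klrg1, a mark of terminally differentiated effector cells, went from 8.20, 9.39 and 12.9 to 19.2, 20.3 and 36.4 CPM in CD4 cells (log2 1.27, SE 0.43, adjusted p = 0.0339), and from 0, 0.284 and 0.228 to 27.6, 24.2 and 53.2 in CD8 cells (log2 7.65, SE 0.71, adjusted p = 4.6e-07). At day 0 it was lower in CD8 than in CD4 cells (log2 -5.88, SE 0.71, adjusted p = 2.8e-06), and at day 7 the cell types overlapped, so that the difference in rise was 6.35 on the log2 scale (SE 0.86, adjusted p = 3.2e-05). The CD4 call was lost without day 0 library 1 (adjusted p = 0.099), day 0 library 2 (adjusted p = 0.0815) or day 7 library 3 (log2 0.95, adjusted p = 0.135), and with no filter on low counts (adjusted p = 0.0545). Klre1 overlapped between the days in CD4 cells, at 0.635, 0.602 and 0.958 and then 0.833, 1.19 and 1.46 CPM (log2 0.62, adjusted p = 0.338). In CD8 cells Klre1 rose from 0.719, 0.536 and 0.714 to 4.22, 3.54 and 6.85 CPM (log2 2.85, SE 0.59, adjusted p = 0.00081).

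Klra1 was at 3.00 CPM or less in each of these libraries and moved in opposite directions. It went from 0.212, 0.109 and 0.495 to 1.07, 0.567 and 1.03 CPM in CD4 cells (log2 1.67, SE 0.58, adjusted p = 0.0362), and from 1.12, 1.29 and 3.00 to 0.532, 0.537 and 0.708 in CD8 cells (log2 -1.63, SE 0.53, adjusted p = 0.0151). The days did not overlap in either cell type, and the difference between the 2 changes was -3.33 on the log2 scale (SE 0.78, adjusted p = 0.0078). The CD4 call was lost without day 0 library 1 (adjusted p = 0.107) or 2 (adjusted p = 0.116) and without day 7 library 1 (adjusted p = 0.0986) or 3 (adjusted p = 0.0831). Klra1 in CD4 cells also missed the threshold with no filter on low counts (adjusted p = 0.057) or with only these groups in the fit (adjusted p = 0.0764). The CD8 call was lost without day 0 library 3 (log2 -1.04, adjusted p = 0.114) or day 7 library 1 (adjusted p = 0.0511).

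Klrb1c rose in both. In CD4 cells it went from 18.3, 20.1 and 16.0 to 35.7, 34.6 and 59.4 CPM (log2 1.21, SE 0.28, adjusted p = 0.004), and in CD8 cells from 9.67, 7.19 and 11.9 to 15.7, 14.9 and 45.1 (log2 1.37, SE 0.44, adjusted p = 0.0156). The third day 7 library stood well above the other 2 in both cell types. Without it the CD8 difference was 0.66 on the log2 scale (adjusted p = 0.15), and without CD8 day 0 library 2 it did not pass either (adjusted p = 0.062), nor with no filter on low counts (adjusted p = 0.0517). Klrb1c did not differ significantly between CD8 and CD4 cells at day 7 (log2 -0.78, adjusted p = 0.197), but was lower in CD8 cells without CD8 day 7 library 3 (adjusted p = 0.0085).

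Adaptors did not follow the receptors. Tyrobp went from 69.2, 61.1 and 92.9 to 3.51, 2.72 and 4.05 CPM in CD4 cells (log2 -4.49, SE 0.35, adjusted p = 4.2e-07), and from 90.9, 111 and 40.9 to 2.89, 2.75 and 3.90 in CD8 cells (log2 -4.69, SE 0.33, adjusted p = 1.6e-08). Fcer1g fell in CD4 cells, from 52.8, 45.9 and 75.9 to 23.1, 25.5 and 26.1 CPM (log2 -1.27, SE 0.28, adjusted p = 0.003). In CD8 cells Fcer1g overlapped between the days, at 82.5, 105 and 35.5 and then 84.0, 97.6 and 72.5 CPM (log2 0.17, adjusted p = 0.695), and it was higher there than in CD4 cells at day 7 (log2 1.76, SE 0.34, adjusted p = 0.00064). The difference of its change between the cell types did not pass (log2 1.41, adjusted p = 0.061), except without CD4 day 0 library 2 (adjusted p = 0.0394), without CD8 day 0 library 2 (adjusted p = 0.026) or with DESeq2 (adjusted p = 0.0262).

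The day 0 libraries also held more RNA of other cells, in which Tyrobp and Fcer1g are known to be abundant. The 12 myeloid markers summed to 1139 to 1339 CPM in CD4 and 1288 to 2795 in CD8 libraries at day 0, and to 241 to 288 and 316 to 367 at day 7. Csf1r, the receptor of macrophage growth factor, was at 172 ± 55 CPM in CD4 and 423 ± 157 in CD8 cells at day 0 (SD, n = 3), against 4.42 and 2.70 at day 7. The 6 B and plasma cell markers summed to 1335 to 2202 and 959 to 1743 CPM at day 0, and to 314 to 406 and 248 to 325 at day 7. Markers of erythroid cells and platelets summed to 2995 to 9001 and 576 to 763 CPM at day 0, and to at most 9.64 and 13.4 at day 7. The 5 NK cell markers summed to 5.29 to 10.1 CPM in CD4 and 33.2 to 59.3 in CD8 libraries at day 0, and to 8.00 to 14.1 and 34.1 to 72.5 at day 7. The part of these cells in the adaptor changes, or in those of the related genes below, was not tested.

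**Figure D4:**
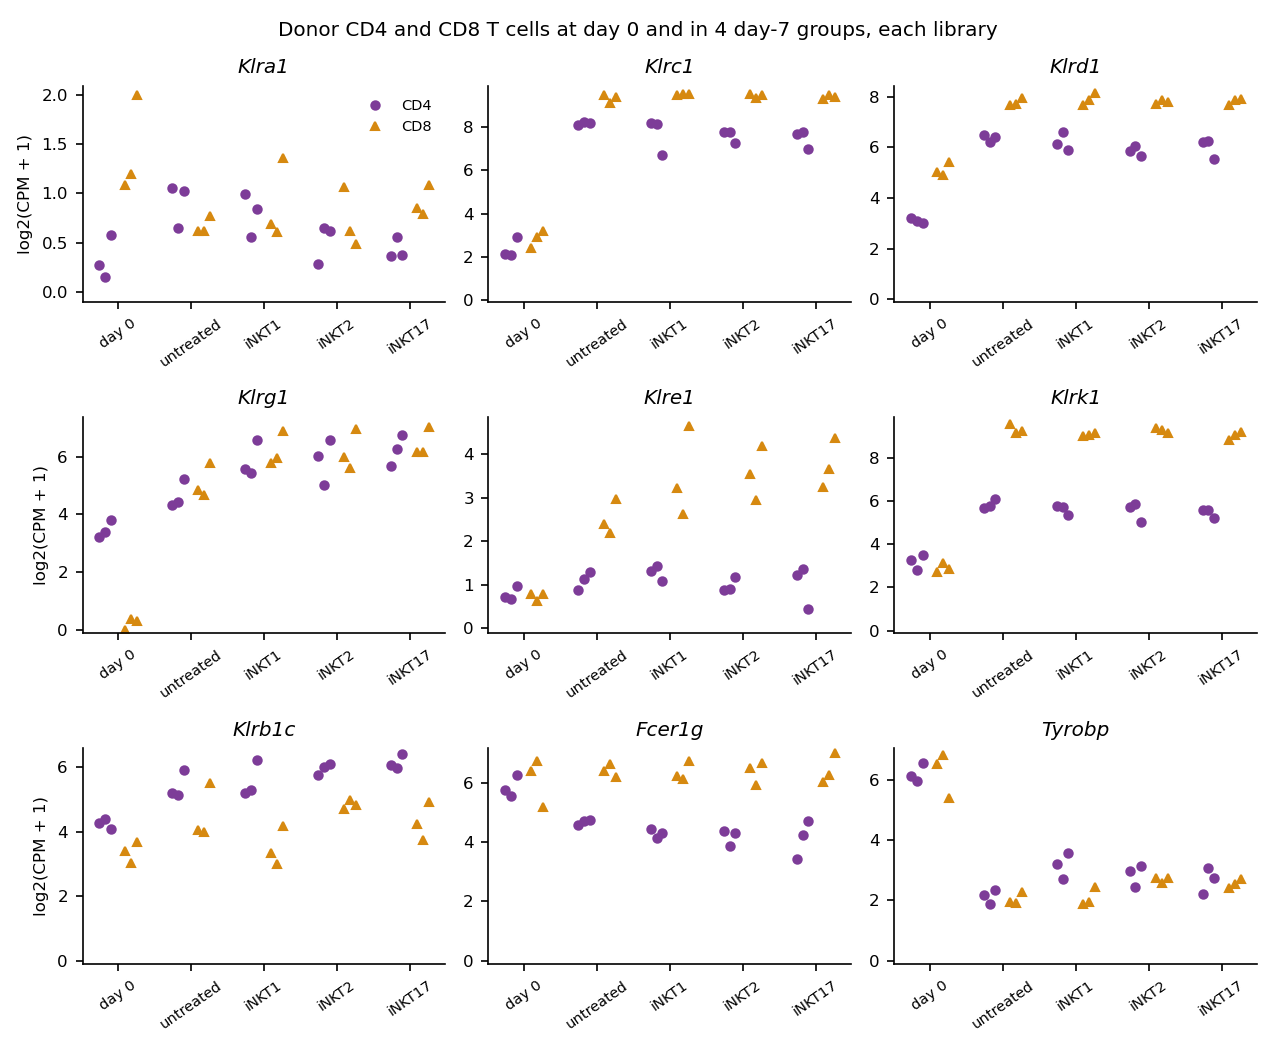
Levels of the 9 genes in donor CD4 (circles) and CD8 (triangles) T cells as log2(CPM + 1), with 1 point per library and 3 per group, and a scale of its own for each gene. The groups are day 0 and, on day 7, untreated hosts and hosts given iNKT1, iNKT2 or iNKT17 cells. Klrc1 and Klrk1 rise and Tyrobp falls from day 0 to every day 7 group.

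Other genes of the pathway also changed, as did many of all genes tested. Of all genes, 17.4% rose and 18.2% fell in CD4 cells (35.6% in all), and 30.9% rose and 29.8% fell in CD8 cells (60.7%). The counts below stand beside these shares, and no list was tested as a set. The part of other cells in the day 0 libraries was not tested for these genes either. Of 11 further lectin-like receptors tested, 4 rose and 2 fell in CD4 cells and 6 rose and 3 fell in CD8 cells. Klrc2 (log2 6.01, SE 0.44 in CD4 and 6.55, SE 0.28 in CD8) and Klrb1b (3.70, SE 0.45 and 7.01, SE 0.51) rose in both. Klrc3 rose from 0 to 369 reads in CD4 and from 7 to 1589 in CD8 cells, summed over 3 libraries, and Klri1, a partner of Klre1, fell from 468 to 0 and from 147 to 3 reads. Of 8 other NK cell receptors tested, 4 rose and 4 fell in CD4 and 5 rose and 1 fell in CD8 cells. Among them Slamf7 rose in both (log2 1.98, SE 0.17 and 2.90, SE 0.13), and Cd244 fell in CD4 (-2.09, SE 0.21) and rose in CD8 cells (0.92, SE 0.25), a difference of 2.98 (SE 0.33, adjusted p = 1.7e-06). Of the signalling genes, 4 rose and 5 fell of 16 in CD4 and 4 rose and 7 fell of 15 in CD8 cells. Hcst, the adaptor of NKG2D, rose in both (log2 0.90, SE 0.17 and 0.65, SE 0.10), and Syk, the kinase that binds Fcer1g and Tyrobp, fell in both (-2.94, SE 0.36 and -2.02, SE 0.41). Lat2, a linker for such receptors, fell in CD4 (-2.85, SE 0.49) and rose in CD8 cells (1.40, SE 0.34). Of the 3 inhibitory phosphatases, Ptpn11 rose in both (1.65, SE 0.27 and 1.54, SE 0.17), and Ptpn6 and Inpp5d fell in CD8 cells (-0.43, SE 0.09 and -0.39, SE 0.14). Of 11 ligands 1 rose in CD4, and 2 rose and 2 fell in CD8 cells. Of 8 regulators, 7 rose and 1 (Zeb2) fell in CD4 and 5 rose in CD8 cells, led by Tbx21 (3.81, SE 0.18 and 3.79, SE 0.18).

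In the main fit, treatment with iNKT cells gave no called change in any member. In CD4 cells 0 of 9 passed against untreated hosts with each of the 3 treatments, where 0% of 15031 genes passed. With that test, 1008, 1204 and 1170 genes had an unadjusted p under 0.05 for iNKT1, iNKT2 and iNKT17. DESeq2 called 122, 119 and 212 genes, and 1 member each for iNKT1 (Tyrobp, log2 1.27, adjusted p = 0.0218) and iNKT17 (Klrg1, log2 1.61, adjusted p = 0.022). In CD8 cells 0 of 9 passed for iNKT1, iNKT2 and iNKT17, with the main edgeR fit or DESeq2. The main fit called 0.158%, 0.11% and 0.206% of 14586 genes. Of these genes 0.0891%, 0.0891% and 0.137% were higher and 0.0686%, 0.0206% and 0.0686% lower. At an unadjusted p under 0.05, 2, 3 and 4 of the 9 members passed in CD4 cells and 3, 3 and 3 in CD8 cells. Among all 14586 genes in CD8 cells, 1799, 1872 and 1972 did so for iNKT1, iNKT2 and iNKT17.

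Klrg1 had among the largest differences from untreated hosts in both cell types. Its 3 untreated CD4 libraries were at 19.2, 20.3 and 36.4 CPM, and the 9 treated ones ranged from 31.4 to 107 with a median of 63.9. In CD8 cells the untreated libraries were at 27.6, 24.2 and 53.2 CPM and the treated ones ranged from 48.1 to 129 with a median of 70.6. In each cell type 8 of 9 treated libraries lay above all 3 untreated libraries. How common this is among all genes was not counted, here or for the members below, so such counts only describe the libraries. The titles give the CD4 and CD8 libraries of day 7 the same experiments and numerals, so the counts of the cell types may not be independent. The log2 differences for iNKT1, iNKT2 and iNKT17 were 1.28, 1.32 and 1.63 in CD4 cells (SE 0.43, 0.43 and 0.43; adjusted p = 0.542, 0.417 and 0.255) and 1.14, 1.16 and 1.36 in CD8 cells (adjusted p = 0.295, 0.274 and 0.175). Library 3 was the highest in all 4 day 7 groups of each cell type, the untreated group included, and may be the library of the other experiment. With the library number as a block, Klrg1 was called higher in CD4 cells given iNKT17 and in CD8 cells given each of the 3 treatments, as given in the last section. The 3 treatments share the same 3 untreated libraries, so their differences are not independent of each other.

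Klre1 in CD8 cells and Tyrobp in CD4 cells showed similar sizes. As for Klrg1, library 3 was the highest for Klre1 in all 4 CD8 day 7 groups, the untreated group included. For Tyrobp it was the highest in 3 of 4 CD4 groups, also with the untreated group among them. Klre1 was at 3.54 to 6.85 CPM in untreated CD8 libraries and at 5.14 to 23.9 in the 9 treated ones, 7 of which lay above all untreated libraries (log2 1.37, 1.25 and 1.44 for iNKT1, iNKT2 and iNKT17, adjusted p from 0.23 to 0.322). Without library 3 of the hosts given iNKT1, the first of these was 0.48 on the log2 scale. Tyrobp was at 2.72 to 4.05 CPM in untreated CD4 libraries and at 3.67 to 10.999 in the treated ones, 8 of which lay above all untreated libraries (log2 1.28, 0.89 and 0.72, adjusted p from 0.41 to 0.587). Myeloid markers summed to 241 to 288 CPM in untreated CD4 libraries and to 309 to 491 in hosts given iNKT1 cells, 213 to 362 with iNKT2 and 208 to 317 with iNKT17 cells. Their part in the Tyrobp values was not tested.

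In CD8 cells Tyrobp was at 2.75 to 3.90 CPM in untreated and 2.68 to 5.63 in treated libraries, 7 of 9 of which lay above all untreated ones (log2 0.07, 0.77 and 0.62, none called). There, library 3 was the highest in all 4 day 7 groups. Most differences of the remaining members were smaller. In CD8 cells the log2 differences lay between 0.04 and 0.17 for Klrc1, 0.01 and 0.13 for Klrd1, -0.31 and -0.05 for Klrk1, and -0.02 and 0.06 for Fcer1g. In CD4 cells they lay between -0.62 and -0.32 for Klrc1, -0.51 and -0.13 for Klrd1, -0.37 and -0.23 for Klrk1, and -0.51 and -0.38 for Fcer1g, and 7, 7, 5 and 8 of the 9 treated libraries lay below all 3 untreated ones. Klrb1c ranged from 0.21 to 0.74 in CD4 and from -1.18 to 0.15 in CD8 cells, with library 3 the highest in 4 of 4 CD4 and 3 of 4 CD8 groups. Klra1 ranged from -1.31 to -0.22 in CD4 and from 0.18 to 0.62 in CD8 cells, at levels of at most 1.57 CPM. Whether any treatment differed from another was not tested.

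**Figure D5:**
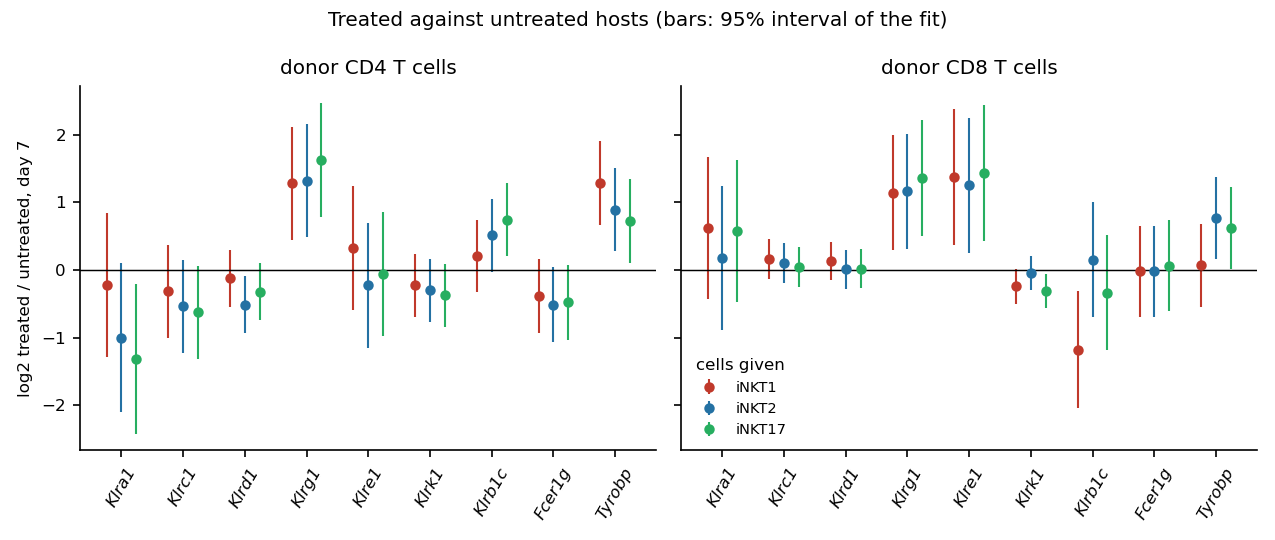
Log2 difference between donor T cells of treated and untreated hosts on day 7 for each gene and treatment, in CD4 (left) and CD8 cells (right). Points are estimates of the fit across all genes and bars are 95% intervals. No difference passed after adjustment in this fit, which has no block for the library number. Klrg1 lies above 0 in all 6 comparisons, between 1.14 and 1.63.

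Genes with the most similar pattern were sought for each member over the 30 donor libraries, by Pearson's r of log2 CPM across 15601 genes. The libraries share the step from day 0 to day 7, so a high r is common and is given as a description. Klrc1 was closest to its neighbour Klrc2 (r = 0.998), Anxa2 (0.993) and Gzmb (0.993), the gene of a cytotoxic granule protease. Klrb1c was closest to its family member Klrb1a (0.987), with the next gene at 0.899. Fcer1g was closest to Lat2 (0.961), and Tyrobp to Gngt2 (0.975) and the class II genes H2-Ab1 (0.974) and H2-Aa (0.974), which B and myeloid cells express. Klrd1 was closest to Atp8b4 (0.986), Klrk1 to Paics (0.984), Klre1 to Mcm4 (0.941), a gene of DNA replication, and Klrg1 to Gm6637 (0.949). Klra1, the least abundant, reached only 0.669, with Klra13-ps. Klrc1 and Klrc2, and Klrb1c and Klrb1a, are related in sequence, and the part of shared reads in these values was not tested.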

How the data were processed

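The deposited tables hold raw counts: reads per gene in sorted iNKT cells and in donor T cells, and reads per called region for ATAC, and UMI counts per cell for the single-cell libraries. Per the labels' protocols, iNKT RNA came from a stranded mRNA kit, donor RNA from a full-length amplification kit and single cells from a 3′ kit. The submitters' processing notes name STAR 2.5.4, kallisto, Bowtie2, MACS2, HOMER 4.9.1, bedtools 2.27.1, Cell Ranger 2.1, Seurat 3 and DESeq2 1.22.2, with build GRCm38. The tool behind each table, the use of strand in counting and the assignment of shared reads are not given in the sources used here. Gene rows were matched to symbols through the single-cell gene table, and promoters came from RefSeq (GRCm38.p6).

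Counts were tested with edgeR 4.0.16 (quasi-likelihood, TMM scaling, its filter on low counts, R 4.3.3), with DESeq2 1.42.0 as an alternative, over all genes or regions, with Benjamini-Hochberg adjustment. One fit held all iNKT RNA groups, and others all ATAC groups, each donor cell type, and both donor cell types together. Scripts were tested on simulated data. Single cells with at least 1000 UMIs and 500 genes and at most 10% mitochondrial UMIs were clustered with scanpy 1.11.5 (2000 variable genes, 20 components, 15 neighbours, Leiden resolution 0.6), and no doublet caller was run. Intervals cover counting error only.

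The 9 members and the gene lists were chosen with earlier results of these data known. The text names all members, for each member the region with the highest mean CPM and that with the smallest p, up to 3 genes of highest r, and up to 4 called genes of a list with the smallest p; other regions and genes were chosen after their values were seen. Same-numbered ATAC libraries of different sublineages deviated together (r from 0.438 to 0.602 over 6 pairs, and 6 of 6 libraries were closest to their own number). With 2 libraries a group the deviations mirror each other (median r -0.515 between other numbers). These values are therefore not independent and cannot show a pairing, and no label states one. Fits with the library number as a block are given as an alternative wherever they change a call described for ATAC. The 3 CD8 day 0 columns carry 1 shared name, so their library numbers only name them. Alternatives were other scaling, DESeq2, no filter, fits of the compared groups alone, the library number as a block, a window of 5 kb, other cell filters and resolutions, and each library left out in turn.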

Additional observations from a re-analysis of the deposited data

Results flagged for a closer look

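The change of 3 genes from day 0 to day 7 differed between donor CD8 and CD4 cells by the interaction test of edgeR. For Klrk1 (NKG2D) the change was larger in CD8 cells by 3.83 on the log2 scale (adjusted p = 4.1e-09), with both cell types rising. For Klrg1 the difference was 6.35 (adjusted p = 3.2e-05), where CD8 cells started at 0 to 0.284 CPM and CD4 cells at 8.20 to 12.9 CPM, and all libraries of both were higher at day 7. For Klra1 the difference was -3.33 (adjusted p = 0.0078), with higher levels at day 7 in CD4 and lower levels in CD8 cells, all at 3.00 CPM or less. Myeloid, B cell and erythroid markers also differed between day 0 and day 7 in both cell types, and their part in these differences was not tested.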

How the results depend on the processing

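Among single genes and regions, 781 of 888 values with 1 library left out kept their direction and side of the threshold, as did 685 of 736 under other settings. Of the shares of cells with a UMI, 20 of 117 moved beyond their interval with other cell filters, resolutions or thinning. None of the 56 changes of sign touched a value that was called. Spread between only 2 libraries a group limits the iNKT comparisons, and low reads limit Klra1, Klre1 and Klrg1. The cause of the changes below was not tested.

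The number of members called in iNKT2 against iNKT1 was 6 with DESeq2 and 7 with no filter on low counts, and ran from 1 (without iNKT1 library 2) to 7 (without iNKT2 library 1) with a library left out. In iNKT17 against iNKT1 that range was 3 to 4. In iNKT17 against iNKT2 it was 1 with DESeq2's size factors, 4 with DESeq2, 5 with no filter and 0 with only the compared groups. For ATAC regions in that comparison the number was 4 with DESeq2, 1 with only the compared groups, 1 within 5 kb, and 0 to 5 with a library left out. DESeq2 called 1 member in CD4 cells for iNKT1 and 1 for iNKT17, and 5 in the CD8 minus CD4 difference of the day 7 change, adding Klre1 and Fcer1g. Over all genes, the calls of edgeR in the 3 sublineage comparisons (159, 247 and 88 for iNKT2 against iNKT1, iNKT17 against iNKT1 and iNKT17 against iNKT2) were 1180, 1829 and 1482 with DESeq2 and 445, 559 and 339 with no filter, the last also 43 with only the compared groups. With a library left out, the highest were 315 (without iNKT1 library 1), 1040 and 831 (both without iNKT17 library 1). For ATAC, leaving out iNKT1 library 2 took 21050 and 20220 called regions to 11572 and 12884. For treatment of CD8 cells with iNKT1, iNKT2 and iNKT17, edgeR's 23, 16 and 30 called genes were 386, 355 and 476 with DESeq2, 3, 2 and 6 with only the compared groups, and 0, 2 and 1 without untreated library 1.

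With the library number as a block, members called in RNA numbered 1 in iNKT2 against iNKT1, 3 in iNKT17 against iNKT1 and 1 in iNKT17 against iNKT2. RNA and donor libraries of the same number did not all deviate together (r from -0.125 to 0.0606 for RNA, -0.298 to 0.421 for CD4 and -0.249 to 0.257 for CD8). Closest to their own number were 2 of 6 RNA, 10 of 15 CD4 and 4 of 12 CD8 libraries, so the CD4 numbers may carry more than a name. The labels do not say what a number stands for, and the main fits did not use it. CD4 and CD8 libraries of the same number and day 7 group had r over 0.1 in 9 of 12 pairs (median 0.14). The block also called Klrg1 for treatment: 1 member in CD4 cells given iNKT17 (log2 1.65, adjusted p = 0.0394) and 1 each in CD8 cells given iNKT1 (1.14, adjusted p = 0.0118), iNKT2 (1.14, adjusted p = 0.0168) and iNKT17 (1.38, adjusted p = 0.0024), and Klrb1c between CD8 and CD4 cells at day 7 (-0.89, adjusted p = 0.0144). ATAC fits with the block called 26 regions for iNKT2 and 23 for iNKT17, each against iNKT1, and 5 in iNKT17 against iNKT2. Among all 38 regions, most other changed calls are in the counts by gene above. The rest are 1 more region called at Fcer1g in each comparison with iNKT1, and 1 each at Klre1 and Tyrobp called higher in iNKT17 than in iNKT2. Fcer1g in CD8 cells given iNKT17 was -0.015 with the block, and Klrd1 in CD8 cells given iNKT2 was -0.000797 with only the compared groups.

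Signs changed with a library left out for these uncalled log2 differences. In iNKT17 against iNKT2, RNA of Klre1 ran from -6.42 to 0.43 and of Fcer1g from -0.65 to 4.52. ATAC regions there, by start position, ran from -0.13 to 0.47 (171222369) and -0.49 to 0.010 (171231732) at Fcer1g, -1.01 to 0.10 at the start of Klrc1, -0.86 to 0.066 between Klrd1 and Klre1 (129586742), -0.34 to 0.55 at Klre1 (129558542), -1.16 to 0.34 (122284540) and -0.28 to 0.38 (122291589) at Klrg1, and -0.20 to 0.20 at Tyrobp (30422020). In iNKT17 against iNKT1, the Klrc1 region at 129680178 ran from -0.18 to 0.53. In CD4 cells given iNKT1, Klra1 ran from -0.47 to 0.017, Klrc1 from -0.55 to 0.029, Klrd1 from -0.36 to 0.023 and Klrb1c from -0.20 to 0.49, and with iNKT17 Klre1 from -0.42 to 0.36. In CD8 cells given iNKT1, Fcer1g ran from -0.24 to 0.10, Tyrobp from -0.20 to 0.24, Klra1 from -0.048 to 0.90 and Klrd1 from -0.011 to 0.23. With iNKT2, Klrd1 ran from -0.046 to 0.10, Klrk1 from -0.14 to 0.069, Klrb1c from -0.13 to 0.87, Fcer1g from -0.18 to 0.15 and Klra1 from -0.33 to 0.45. With iNKT17, Klrd1 ran from -0.030 to 0.12, Klrc1 from -0.063 to 0.11, Klrb1c from -0.74 to 0.38 and Fcer1g from -0.29 to 0.26. Fcer1g at day 7 against day 0 in CD8 cells ran from -0.16 to 0.50. Between CD8 and CD4 cells, Tyrobp ran from -0.17 to 0.44 and Klre1 from -0.26 to 0.086 at day 0, and Tyrobp from -0.28 to 0.018 at day 7. In the difference of the changes, Klrb1c ran from -0.58 to 0.43 and Tyrobp from -0.55 to 0.061.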
